A study of Homo sapiens with 8 samples.

Results

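The S100 proteins are a family of small proteins, most of which bind calcium. Here 10 of their genes were followed: S100A2, S100A4, S100A6, S100A7, S100A8, S100A9, S100A10, S100A11, S100A14 and S100P. Each was taken as the row whose symbol equals the gene's name, so 10 of the 24252 rows of each table are described. The RNA came from HaCaT, an immortalised human keratinocyte line, with 4 libraries in the Control group and 4 in the OGD-R group. OGD/R usually stands for oxygen and glucose deprivation with later return of both. The labels call the sampled stage early and state no length for it. No other agent or genotype is named for either group. Separate cultures are not stated for the replicates, so all p-values below reflect the spread between these libraries only, which may be technical.

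Most S100 proteins form dimers that change shape on binding calcium and then dock onto target proteins, though not every member needs calcium for this. In skin, S100A7 (psoriasin), S100A8 and S100A9 are known as alarmins, proteins released by stressed or inflamed keratinocytes that also act against microbes, and S100A8 and S100A9 pair to form calprotectin. S100A10 and S100A11 work mostly inside the cell as partners of annexins, S100A4 and S100A6 are linked to cell movement and growth, and S100A2 is a gene of basal keratinocytes.

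Levels are given as FPKM, a value scaled to transcript length and library depth, so that genes can be compared per length. Summed over all rows, the libraries held 428984 to 475385 FPKM. The keratinocyte label held in all of them: the 10 listed keratinocyte markers were all detected, with KRT5 at 1984 FPKM or more, and summed to 12995 to 21386 FPKM in Control and 16089 to 17073 FPKM in OGD-R. Log2 values of the 11740 tested genes correlated at 0.992 for Controls 1 and 2 and at 0.991 for Controls 3 and 4, but at no more than 0.881 between a library of one pair and a library of the other. The OGD-R libraries correlated at 0.940 to 0.947 with Controls 1 and 2 and at 0.879 to 0.887 with Controls 3 and 4. Genes are not independent replicates in such a correlation. Because the Control libraries lie in 2 places, each S100 gene is given with all 8 libraries and without either pair of Controls. Those pairs were taken from these same values. The p-values of fits without a pair leave out the spread between pairs. They describe the libraries kept and do not measure how sure a difference between the groups is.

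S100A10 was higher and S100A2 lower in OGD-R than in Control, and the other 8 genes did not pass the test with all 8 libraries. The alarmin genes S100A7, S100A8 and S100A9 and the gene S100P were lowest in Controls 1 and 2, highest in Controls 3 and 4, and in between in all 4 OGD-R libraries. S100A6 showed the opposite order of the Controls. The test was limma's moderated test of log2(FPKM + 1), with p-values adjusted by the Benjamini-Hochberg method over all tested genes and a threshold of 0.05. By it 1 of the 10 genes was called higher and 1 lower, against a background of 10.2% of tested genes called higher and 9.69% called lower, so the share among the S100 genes was near that of all genes. Over all genes these were 1202 higher and 1138 lower, and 1600 higher and 871 lower when libraries were scaled without mitochondrial genes. All OGD-R libraries exceeded all Controls for 1 of the 10 genes and lay below them for 1, as they did for 15.2% and 14.8% of tested genes. The 10 genes had a median log2 fold change of 0.48, and all tested genes had one of 0.02. The median of the 10 genes depended on the Controls kept: 0.50 without Controls 3 and 4, and -0.49 without Controls 1 and 2. In bulk RNA, fewer cells of a type and less RNA per cell cannot be told apart.

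**Figure D1:**
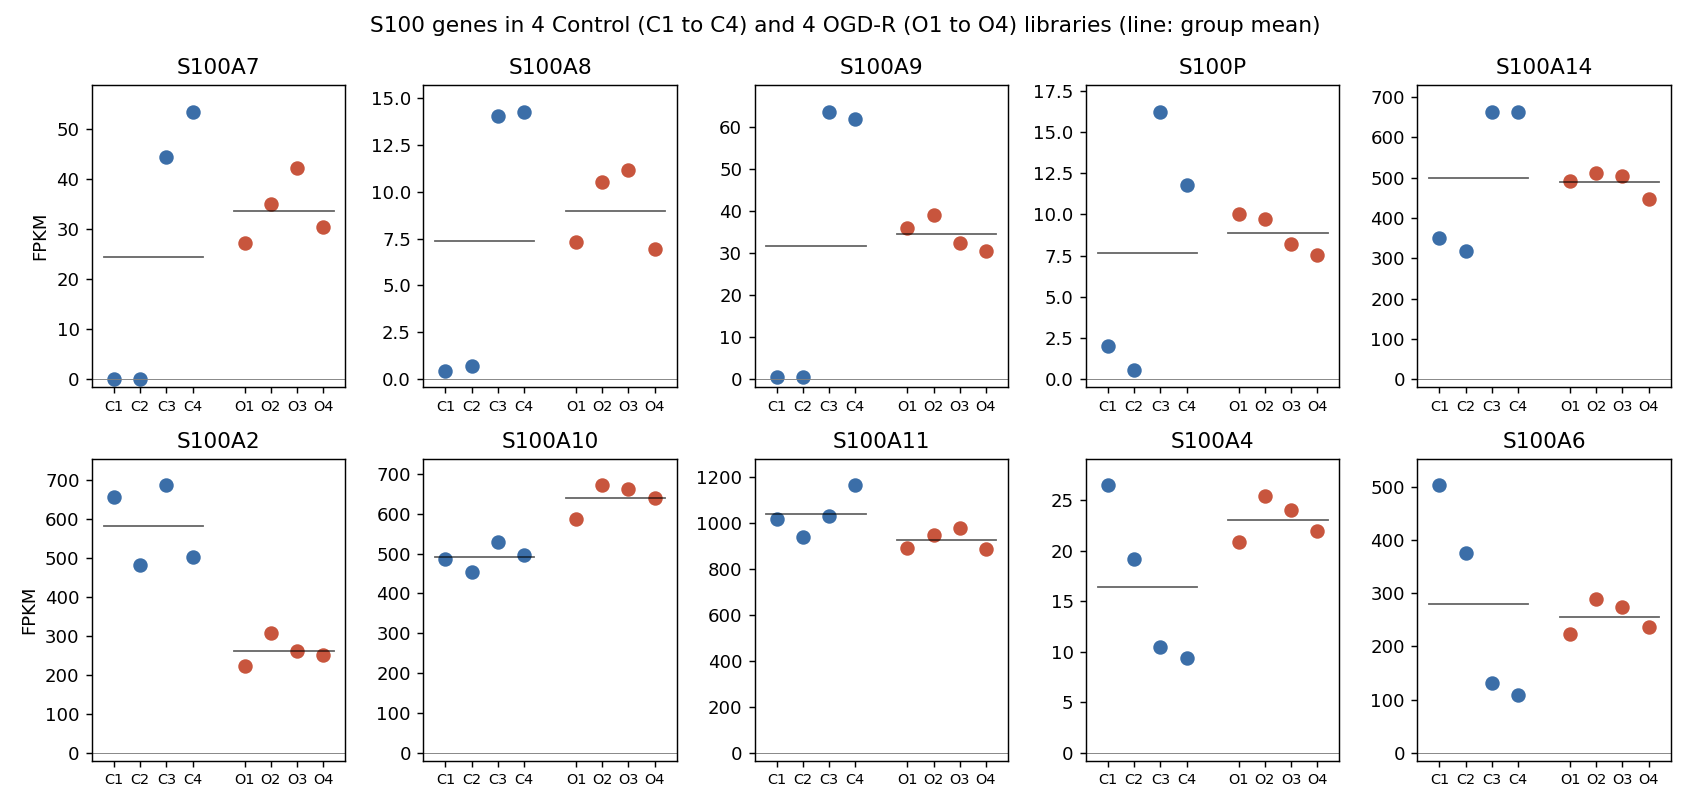
FPKM of the 10 S100 genes (vertical axis, linear) in each Control and OGD-R library, with a line at each group's mean. S100A2 is lower and S100A10 higher in all 4 OGD-R libraries than in any Control, while for S100A7, S100A8, S100A9 and S100P Controls 1 and 2 lie near 0 and Controls 3 and 4 highest.

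The sequence before the start of S100A7, S100A8, S100A9 and S100P is shown because these are the genes whose Controls differed most and because all 4 held the letters of a TATA box there. The 100 bases before the start are printed from the RefSeq promoter table (GRCh38.p14), 5′ to 3′ along the gene's strand, with TATAAA in capitals. S100A8 has several starts in the table, and the one with these letters nearest to it is shown.
S100A7, chr1:153460652-153460751, minus strand: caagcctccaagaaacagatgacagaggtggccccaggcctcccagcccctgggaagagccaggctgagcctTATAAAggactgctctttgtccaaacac
S100A8, chr1:153391074-153391173, minus strand: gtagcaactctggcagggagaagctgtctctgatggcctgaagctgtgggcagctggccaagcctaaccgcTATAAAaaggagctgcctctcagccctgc
S100A9, chr1:153357754-153357853, plus strand: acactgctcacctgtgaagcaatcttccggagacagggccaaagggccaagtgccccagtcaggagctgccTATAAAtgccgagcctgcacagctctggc
S100P, chr4:6693778-6693877, plus strand: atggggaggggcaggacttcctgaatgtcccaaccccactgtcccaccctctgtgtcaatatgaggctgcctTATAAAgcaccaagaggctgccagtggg

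In these windows TATAAA began 28 bases before the start of S100A7 and of S100P, and 29 bases before that of S100A8 and of S100A9. Among 34943 windows that run from 250 bases before to 50 after a gene's start, 11.6% held TATAAA on either strand, and 2.30% held it on the gene's strand beginning 20 to 40 bases before the start. The genes shown were chosen partly for holding these letters, and the start of S100A8 was picked by them. These percentages are therefore a background and not a test of enrichment. For S100A8, the window of the start at 153391188 held no TATAAA. That of the start at 153390976 held TATAAA 126 bases before it. S100A4 held it 31 bases before its start, and the windows of S100A2, S100A6, S100A10, S100A11 and S100A14 did not hold these exact letters. S100A6 and S100A14 held tataag in the 100 bases before their starts, which the search did not count. The windows of S100A7, S100A8, S100A9 and S100P held neither the AP-1 letters TGANTCA nor the C/EBP letters TTGCNNAA, searched on both strands. These were found in 7.72% and 10.5% of all windows, and in the window of S100A11 the C/EBP letters lay 33 bases before the start on the opposite strand. No window of the 10 genes matched a palindromic glucocorticoid receptor element, which 0.0658% of all windows held.

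S100A7 encodes psoriasin, named for its abundance in psoriatic skin (ENSG00000143556, chr1:153457744-153460701, minus strand, GRCh38). Its levels were 0.0839, 0, 44.4 and 53.4 FPKM in Controls 1 to 4, and OGD-R 1 to 4 read 27.2, 34.96, 42.1 and 30.3 FPKM. In Control 1, 1 fragment on the longest annotated S100A7 transcript, of 479 bases, would be worth 0.0837 FPKM, so the level there is that of about 1 fragment. The OGD-R libraries therefore lay above Controls 1 and 2 and below Controls 3 and 4, and the groups overlapped. With all libraries limma put the log2 fold change at 2.25 (SE 1.39, adjusted p = 0.289). The size rests on the pseudocount of 1, since 0.1 and 0.01 in its place gave 3.69 and 4.76, also uncalled. Leaving out Controls 3 and 4 gave 5.04 (SE 0.149, adjusted p = 3.55e-08), and leaving out Controls 1 and 2 gave -0.54 (SE 0.153, adjusted p = 0.0113). Of the 50-base windows of S100A7 transcripts, 14.2% also occur in S100A7A, a close copy, which reached no more than 0.0949 FPKM in any library.

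S100A8 and S100A9 encode the partners of calprotectin, a complex that binds zinc and manganese. For S100A8 (ENSG00000143546, chr1:153390032-153391188, minus strand) Controls 1 to 4 read 0.419, 0.714, 14.1 and 14.3 FPKM, and OGD-R 1 to 4 read 7.34, 10.5, 11.2 and 6.95 FPKM. For S100A9 (ENSG00000163220, chr1:153357854-153361027, plus strand) Controls 1 to 4 read 0.609, 0.613, 63.6 and 61.8 FPKM, and OGD-R 1 to 4 read 36.0, 39.0, 32.5 and 30.4 FPKM. Both genes had the order seen for S100A7, with each OGD-R library between the pairs of Controls. Per length, S100A9 RNA was 2.91 to 4.91 times S100A8 RNA in OGD-R, 4.53 and 4.32 times in Controls 3 and 4, and 1.45 and 0.859 times in Controls 1 and 2. Both genes were below 1 FPKM in Controls 1 and 2, so the ratios there rest on low values. With all libraries limma put the log2 fold change at 1.01 for S100A8 (SE 0.827, adjusted p = 0.424) and at 1.80 for S100A9 (SE 1.32, adjusted p = 0.371). Against Controls 1 and 2 alone it was 2.66 and 4.45 (adjusted p = 4.79e-06 and 9.73e-09). Against Controls 3 and 4 alone it was -0.63 and -0.85 (adjusted p = 0.00880 and 4.37e-05).

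Neutrophils and monocytes also make S100A8 and S100A9, so immune markers were read in the same libraries. Of 9 such markers 8 were below 1 FPKM in every library. PTPRC, the gene of the leukocyte antigen CD45, reached at most 0.0245 FPKM, CSF3R, the receptor gene of a neutrophil growth factor, at most 0.0139 FPKM, and FCGR3B was at 0 in every library. The remaining marker, CD68, a lysosomal glycoprotein, read 16.7, 15.5, 12.3 and 13.5 FPKM in Control and 2.94 to 3.74 FPKM in OGD-R. The 9 markers summed to 12.5 to 16.8 FPKM in Control and 3.34 to 4.04 FPKM in OGD-R. Most of this sum was CD68, and the part of immune cells in the S100A8 and S100A9 values was not tested. Of 7 fibroblast markers 6 were below 1 FPKM in every library, and COL1A2, one of them, was at 0. The list summed to 0.882 to 8.72 FPKM in Control and 3.82 to 4.99 FPKM in OGD-R, most of it COL1A1. COL1A1 read 0.860, 1.09, 8.69 and 7.91 FPKM in Control and 3.45 to 4.20 FPKM in OGD-R, an order like that of the alarmin genes, and its part in their values was not tested. Melanocyte markers summed to at most 0.699 FPKM, with TYR at 0, and endothelial markers to at most 0.463 FPKM.

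S100P, a gene first known from placenta whose protein binds ezrin, is the only one of the 10 outside chromosome 1 (ENSG00000163993, chr4:6693069-6697170, plus strand). Controls 1 to 4 read 1.998, 0.576, 16.2 and 11.8 FPKM, and OGD-R 1 to 4 read 10.01, 9.75, 8.20 and 7.54 FPKM. Again each OGD-R library lay between the pairs of Controls. With all libraries the log2 fold change from limma was 0.79 (SE 0.716, adjusted p = 0.474). It was 2.18 with Controls 1 and 2 as the only Controls (adjusted p = 4.70e-05) and -0.60 with Controls 3 and 4 as the only ones (adjusted p = 0.00404).

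S100A14, an epithelial S100 gene, had the same order at a much higher level and over a smaller range (ENSG00000189334, chr1:153614255-153616986, minus strand). The level was high throughout: Controls 1 to 4 read 349, 317, 664 and 663 FPKM, and OGD-R 1 to 4 read 492, 512, 505 and 446 FPKM. The group means were 498 ± 191 and 489 ± 29.3 FPKM (SD, n = 4 in each group), and limma put the log2 fold change at 0.05 (SE 0.258, adjusted p = 0.902). The change was 0.55 from Controls 1 and 2 (adjusted p = 0.000231) and -0.44 from Controls 3 and 4 (adjusted p = 0.000615). Of the 10 genes, 5 (S100A7, S100A8, S100A9, S100P and S100A14) thus had all OGD-R libraries above Controls 1 and 2 and below Controls 3 and 4, a place held by 6.79% of tested genes.

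S100A2, a gene of basal keratinocytes and a known target of p53 and p63, was lower in every OGD-R library than in any Control (ENSG00000196754, chr1:153561108-153567890, minus strand). In order, Controls 1 to 4 read 657, 481, 685 and 502 FPKM, and OGD-R 1 to 4 read 223, 308, 262 and 252 FPKM. The highest OGD-R library lay well below the lowest Control, and the Controls did not fall into the pairs seen for the alarmin genes. On the log2 scale S100A2 fell by 1.14 with all libraries (limma, SE 0.153, adjusted p = 0.00187). It fell by 1.11 from Controls 1 and 2 (adjusted p = 0.000178) and by 1.17 from Controls 3 and 4 (adjusted p = 7.44e-05). With any single library left out the fall was between 1.06 and 1.23. No choice of libraries could turn the direction, since the groups did not overlap.

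The 100 bases before one of the starts that RefSeq gives for S100A2 are shown because they hold the only AP-1 match (TGANTCA) in the windows of the 10 genes, beginning 52 bases before the start and written in capitals. The window of the other listed start of S100A2 held no match to any of the motifs. The 10 genes have 13 windows, and 7.72% of all 34943 windows held the AP-1 letters, so 1 window with a match is near that background.
S100A2, chr1:153565845-153565944, minus strand: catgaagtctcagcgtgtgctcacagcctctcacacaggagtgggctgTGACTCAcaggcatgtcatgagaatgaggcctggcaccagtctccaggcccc

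S100A10, also called p11, joins annexin A2 in a complex at the plasma membrane that binds plasminogen and carries ion channels to the surface (ENSG00000197747, chr1:151982915-151994390, minus strand). Controls 1 to 4 read 487, 453, 529.9 and 496 FPKM, and OGD-R 1 to 4 read 586, 671, 663 and 640.1 FPKM. All OGD-R libraries lay above all Controls, by a small amount, so no choice of libraries could turn the direction. With all libraries S100A10 rose by 0.38 (log2; limma, SE 0.0839, adjusted p = 0.0162). The rise was 0.44 from Controls 1 and 2 (adjusted p = 0.000713) and 0.32 from Controls 3 and 4 (adjusted p = 0.00530). Its call was lost without OGD-R 2, OGD-R 3 or OGD-R 4 (adjusted p = 0.0615, 0.0615 and 0.0561), while the log2 fold change stayed between 0.34 and 0.42 over all single libraries left out. ANXA2, the gene of annexin A2, read 2489, 2440, 3211 and 3252 FPKM in Controls 1 to 4 and 2569 to 2622 FPKM in OGD-R (limma adjusted p = 0.509). Per length, S100A10 RNA was 0.152 to 0.196 times ANXA2 RNA in Control and 0.225 to 0.261 times in OGD-R, with no overlap. S100A10 alone already separated the groups in this direction, so the ratio is not a further test.

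S100A11, which binds annexin A1 and takes part in keratinocyte growth control, was the most abundant of the 10 genes and ranked between 30 and 42 among all 24252 rows (ENSG00000163191, chr1:152032506-152047907, minus strand). Controls 1 to 4 read 1019, 941, 1028 and 1163 FPKM, and OGD-R 1 to 4 read 891, 948, 979 and 887 FPKM, so the groups overlapped. The log2 fold change was -0.16 with all libraries (SE 0.0872, limma adjusted p = 0.231). It was -0.24 from Controls 3 and 4 (adjusted p = 0.0251) and -0.08 from Controls 1 and 2 (adjusted p = 0.336). ANXA1 read 469 to 559 FPKM in Control and 418 to 517 FPKM in OGD-R (limma adjusted p = 0.433). An antisense gene lies within the span of S100A11 without a shared exon.

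S100A4 and S100A6 were higher in Controls 1 and 2 than in Controls 3 and 4. S100A4 encodes a protein that binds non-muscle myosin and is linked to cell migration (ENSG00000196154, chr1:153543613-153550136, minus strand). Controls 1 to 4 read 26.5, 19.1, 10.5 and 9.33 FPKM, and OGD-R 1 to 4 read 20.8, 25.4, 24.1 and 21.9 FPKM. The OGD-R libraries were within the range of Controls 1 and 2 and above Controls 3 and 4. The log2 fold change from limma was 0.58 with all libraries (SE 0.299, adjusted p = 0.209), 0.03 from Controls 1 and 2 (adjusted p = 0.861) and 1.14 from Controls 3 and 4 (adjusted p = 4.63e-06). Without Control 1 alone it was 0.84 (adjusted p = 0.0394). The gene spans S100A3 on the same strand, with no exon in common.

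S100A6, or calcyclin, varied among the Controls with a coefficient of variation of 68.4%, against 12.1% in OGD-R (ENSG00000197956, chr1:153534599-153536244, minus strand). Controls 1 to 4 read 503, 376, 131 and 109.6 FPKM, and OGD-R 1 to 4 read 223, 289.6, 274 and 236 FPKM. Each OGD-R library lay between the pairs of Controls, a place with Controls 1 and 2 highest that 13.6% of tested genes held. The log2 fold change from limma was 0.15 with all libraries (SE 0.476, adjusted p = 0.850). It was -0.77 from Controls 1 and 2 (adjusted p = 0.0009999) and 1.08 from Controls 3 and 4 (adjusted p = 3.14e-05), so its direction turned with the pair of Controls kept. CACYBP, the gene of the calcyclin-binding protein, read 75.4, 78.4, 19.5 and 19.999 FPKM in Controls 1 to 4 and 40.1 to 41.7 FPKM in OGD-R (limma adjusted p = 0.944), also between the pairs. An antisense gene overlaps an exon of S100A6, and without a stated use of strand their reads cannot be told apart.

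**Figure D2:**
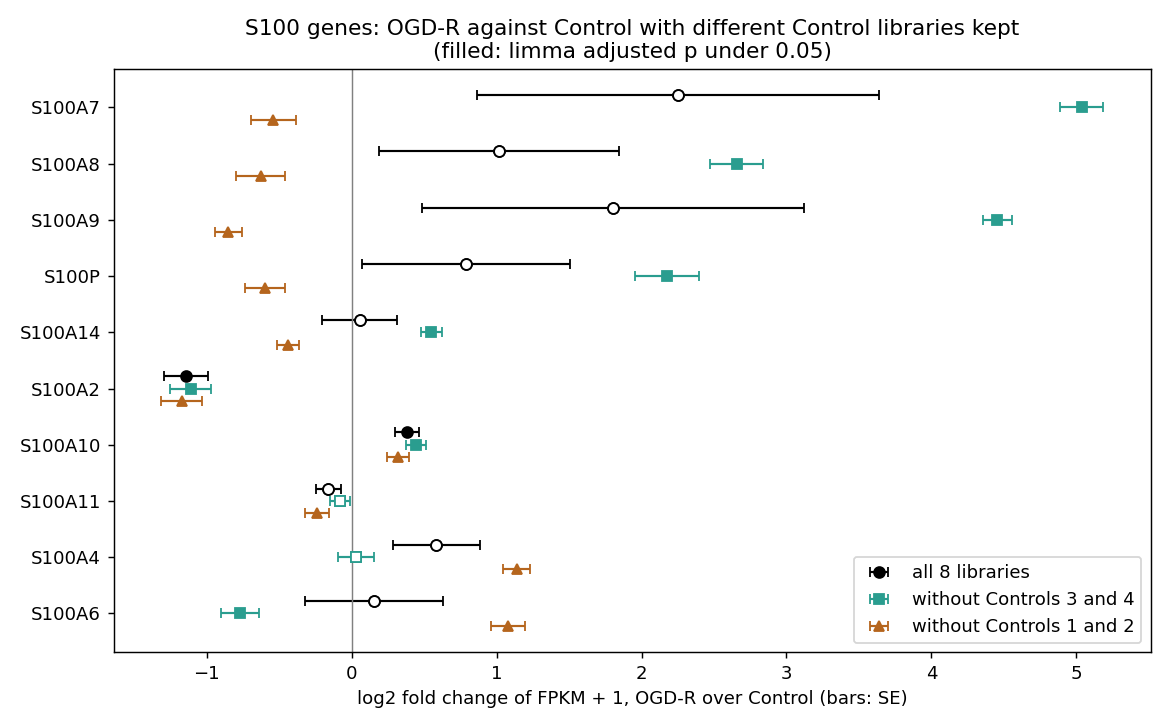
Log2 fold change of FPKM + 1 (horizontal axis, with SE bars) of each S100 gene, OGD-R over Control, with all 8 libraries, without Controls 3 and 4, and without Controls 1 and 2; filled symbols have a limma adjusted p under 0.05. The symbols of S100A2 and S100A10 stay on one side of 0 and close together, whereas those of S100A7, S100A8, S100A9, S100P, S100A14 and S100A6 lie on both sides.

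Compared with Controls 1 and 2 alone, 6 of the 10 genes were called higher and 2 lower in OGD-R, where 22.8% of tested genes were called higher and 32.4% lower. Compared with Controls 3 and 4 alone, 3 were called higher and 7 lower, where 39.2% of tested genes were called higher and 28.4% lower. The medians of the 10 genes were 0.50 and -0.49, against -0.05 and 0.09 over all tested genes. S100A2 was called lower and S100A10 higher in both. Both fits share the OGD-R libraries, and each rests on the spread within 1 pair of Controls and within OGD-R.

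In OGD-R the levels of the 10 genes had a clear order, with S100A11 first (926 ± 44.8 FPKM), then S100A10 (640.1 ± 38.6 FPKM) and S100A14 (489 ± 29.3 FPKM; all SD, n = 4). S100A2 at 261 ± 35.4 FPKM and S100A6 at 256 ± 31.0 FPKM followed and overlapped each other. S100A9 at 34.5 ± 3.82 FPKM and S100A7 at 33.6 ± 6.50 FPKM also overlapped, as did S100A8 at 9.001 ± 2.16 FPKM and S100P at 8.87 ± 1.199 FPKM. S100A4 at 23.1 ± 2.08 FPKM stood between these pairs without overlap. In Control S100A11 at 1038 ± 92.2 FPKM was again first, but S100A2 at 581 ± 105 FPKM overlapped S100A14, S100A10 and S100A6. The 10 genes took 0.562% to 0.743% of the summed FPKM in Control and 0.532% to 0.609% in OGD-R, and the groups overlapped. S100A7, S100A8, S100A9 and S100P had coefficients of variation of 99.2% to 116% over the Control libraries and of 11.1% to 24.0% over the OGD-R libraries.

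Of the 10 genes, 9 lie among 17 S100 genes on chromosome 1, in the region of the epidermal differentiation complex, which also holds genes of the cornified envelope. From S100A9 to S100A1 the cluster spans 274 kb, and S100A11 and S100A10 lie 1310 kb or more before it. S100A12 lies between S100A9 and S100A8, and S100A7A and S100A7L2 lie between S100A8 and S100A7. S100A12, another gene of neutrophils, reached no more than 0.839 FPKM in any library, and S100A7L2 was listed at 0 in all libraries. S100A6, whose Controls had the opposite order, is the next S100 gene after S100A7, with 73897 bases between them.

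**Figure D3:**
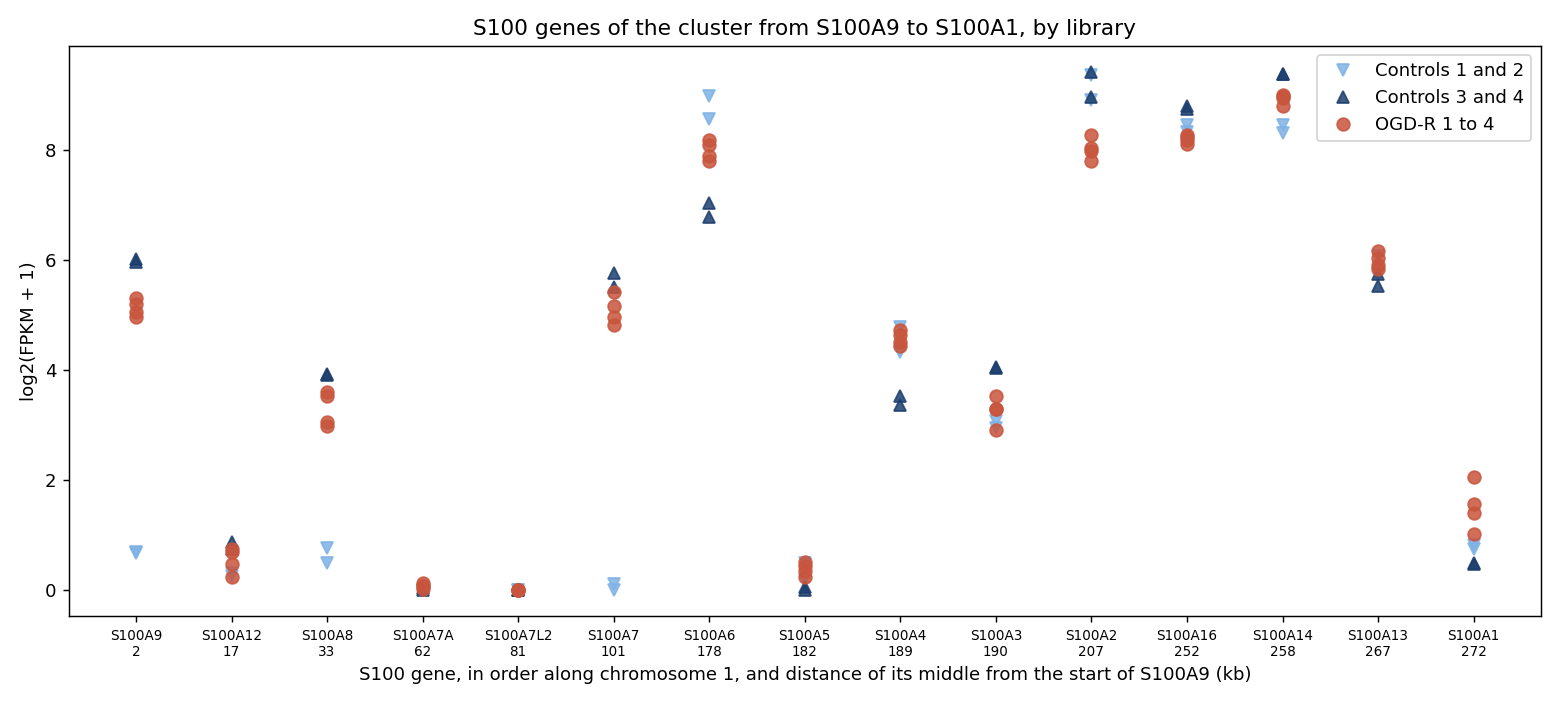
Level of each S100 gene of the cluster, as log2(FPKM + 1), in the 8 libraries; genes are equally spaced in their order along chromosome 1, with the distance from the start of S100A9 in kb under each name. Controls 3 and 4 are above Controls 1 and 2 for S100A9, S100A12, S100A8, S100A7A, S100A7, S100A3, S100A16 and S100A14, below them for S100A6, S100A5, S100A4, S100A13 and S100A1, mixed with them for S100A2, and all at 0 for S100A7L2. S100A12, S100A7A and S100A5 reach at most 0.839, 0.0317 and 0.419 FPKM in Control, so their order is not firm. For S100A13, Controls 2 and 3 read 52.8 and 52.6 FPKM.

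Of the 12 other genes of the S100 list 5 had a mean of at least 1 FPKM and were tested, and 1 rose and 0 fell, beside 10.2% called higher and 9.69% called lower over all tested genes. The 5 had a median log2 fold change of 0.22, against 0.02 over all. S100A1, a gene best known from heart muscle, read 0.763, 0.686, 0.389 and 0.420 FPKM in Controls 1 to 4 and 1.64, 3.198, 1.04 and 1.97 FPKM in OGD-R 1 to 4. Its rise was 0.88 in log2 units (limma, SE 0.215, adjusted p = 0.0243). It passed the filter only through OGD-R, overlaps S100A13 on the opposite strand, and lost its call without Control 3, Control 4, OGD-R 1 or OGD-R 4 (adjusted p from 0.0527 to 0.0701). S100A16, a widely expressed member, read 322 to 443 FPKM in Control and 277 to 309 FPKM in OGD-R and missed the threshold (limma adjusted p = 0.0564). S100A13, which helps to release proteins without a signal peptide, read 45.2 to 66.4 FPKM and 56.2 to 71.0 FPKM. S100A3, a gene of the hair cuticle, read 6.69, 7.40, 15.5 and 15.7 FPKM in Controls 1 to 4 and 6.56 to 10.6 FPKM in OGD-R. S100PBP, the gene of a protein that binds S100P, read 4.17 to 7.95 FPKM and 6.01 to 7.19 FPKM. S100A5 reached no more than 0.422 FPKM, and S100B, S100G and S100Z were listed at 0 in all libraries.

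Of 22 genes of partners and receptors of S100 proteins 18 were tested, and 4 rose and 1 fell, where 10.2% of all tested genes were called higher and 9.69% lower. Their median log2 fold change was -0.03, against 0.02 over all. AHNAK, a very large scaffold protein held at the membrane by S100A10 and annexin A2, rose from 90.7 ± 7.07 to 159 ± 0.740 FPKM (SD, n = 4 in each group), or by 0.81 in log2 units (limma, SE 0.0832, adjusted p = 0.000601). TRPV6, a calcium channel that S100A10 and annexin A2 bring to the membrane, rose from 0.667 ± 0.257 to 3.12 ± 0.390 FPKM (limma adjusted p = 0.000595). AGER, the receptor RAGE that several S100 proteins bind, rose from 0.646 ± 0.421 to 2.13 ± 0.341 FPKM (limma adjusted p = 0.00809), and like TRPV6 it passed the filter only through OGD-R. TLR4, another receptor for S100A8 and S100A9, was too low to be tested, with no library above 0.470 FPKM. ALCAM, a cell adhesion molecule, rose by 0.26 on the log2 scale (limma adjusted p = 0.0439), but each single library left out ended this call (adjusted p from 0.0522 to 0.138). MYH9, the heavy chain of non-muscle myosin that S100A4 binds, fell by 0.39 (limma adjusted p = 0.0221), a call that ended without Control 3, OGD-R 2, OGD-R 3 or OGD-R 4 (adjusted p from 0.0504 to 0.0761) and when libraries were scaled without mitochondrial genes (0.0679).

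Of 20 transcription factors and cytokine receptors that act on S100 genes in keratinocytes, all were tested, and 5 rose and 3 fell, against the same 10.2% and 9.69% of all tested genes. Their median log2 fold change was 0.04, against 0.02 over all. FOSL1, an AP-1 subunit, fell by 2.84 in log2 units (limma, SE 0.135, adjusted p = 2.56e-05). FOSL2, another AP-1 subunit, rose from 19.7 ± 5.79 to 32.6 ± 0.716 FPKM (SD, n = 4 in each group, limma adjusted p = 0.0280), a call that ended without Control 2 or any single OGD-R library (adjusted p from 0.0510 to 0.0774). CEBPA, a transcription factor of differentiating keratinocytes, rose from 2.74 ± 0.229 to 6.86 ± 0.917 FPKM (limma adjusted p = 0.000540). OSMR, the oncostatin M receptor, fell by 1.18 on the log2 scale (limma adjusted p = 0.0106). IL17RC and IL22RA1, receptor chains for cytokines that raise alarmins in psoriasis, rose by 0.47 and 0.63 (limma adjusted p = 0.0181 and 0.0296). The IL17RC call ended without OGD-R 1, OGD-R 3 or OGD-R 4 (adjusted p from 0.0559 to 0.0657). IL22RA1 passed the filter only through OGD-R, and its call ended without Control 3, Control 4 or any single OGD-R library (adjusted p from 0.0590 to 0.0861). CEBPB, a related factor named after its values were seen, read 11.2, 17.4, 81.9 and 83.2 FPKM in Controls 1 to 4 and 9.12 to 12.3 FPKM in OGD-R (limma adjusted p = 0.118).

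Neighbouring genes of the epidermal differentiation complex gave no call with all libraries. Of 28 genes found 16 were tested with limma, and 0 were called, with 2 at an unadjusted p under 0.05 and a median log2 fold change of 0.19. The calls against a single pair of Controls leave out the spread between pairs. They describe the libraries kept and do not measure how sure a difference between the groups is. Compared with Controls 1 and 2 alone, 10 were called higher and 1 lower, with a median of 0.996, where 22.8% of all tested genes were called higher and 32.4% lower with a median of -0.05. Compared with Controls 3 and 4 alone, 2 were called higher and 12 lower, with a median of -1.28, where 39.2% of all tested genes were called higher and 28.4% lower with a median of 0.09. IVL, the involucrin gene of the cornified envelope, read 19.3, 17.4, 399.6 and 466 FPKM in Controls 1 to 4 and 136 to 149 FPKM in OGD-R. SPRR1B, a small proline-rich protein of the same envelope, read 79.3, 62.2, 448 and 549 FPKM and then 264 to 347 FPKM. Both were picked with their values in view and had the order of S100A7, S100A8 and S100A9. Not all tested neighbours did. LCE3D read 1.04, 1.67, 63.1 and 56.1 FPKM in Controls 1 to 4 but 0.410 to 0.828 FPKM in OGD-R, below all Controls. For FLG, OGD-R lay between the pairs with Controls 1 and 2 highest.

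**Figure D4:**
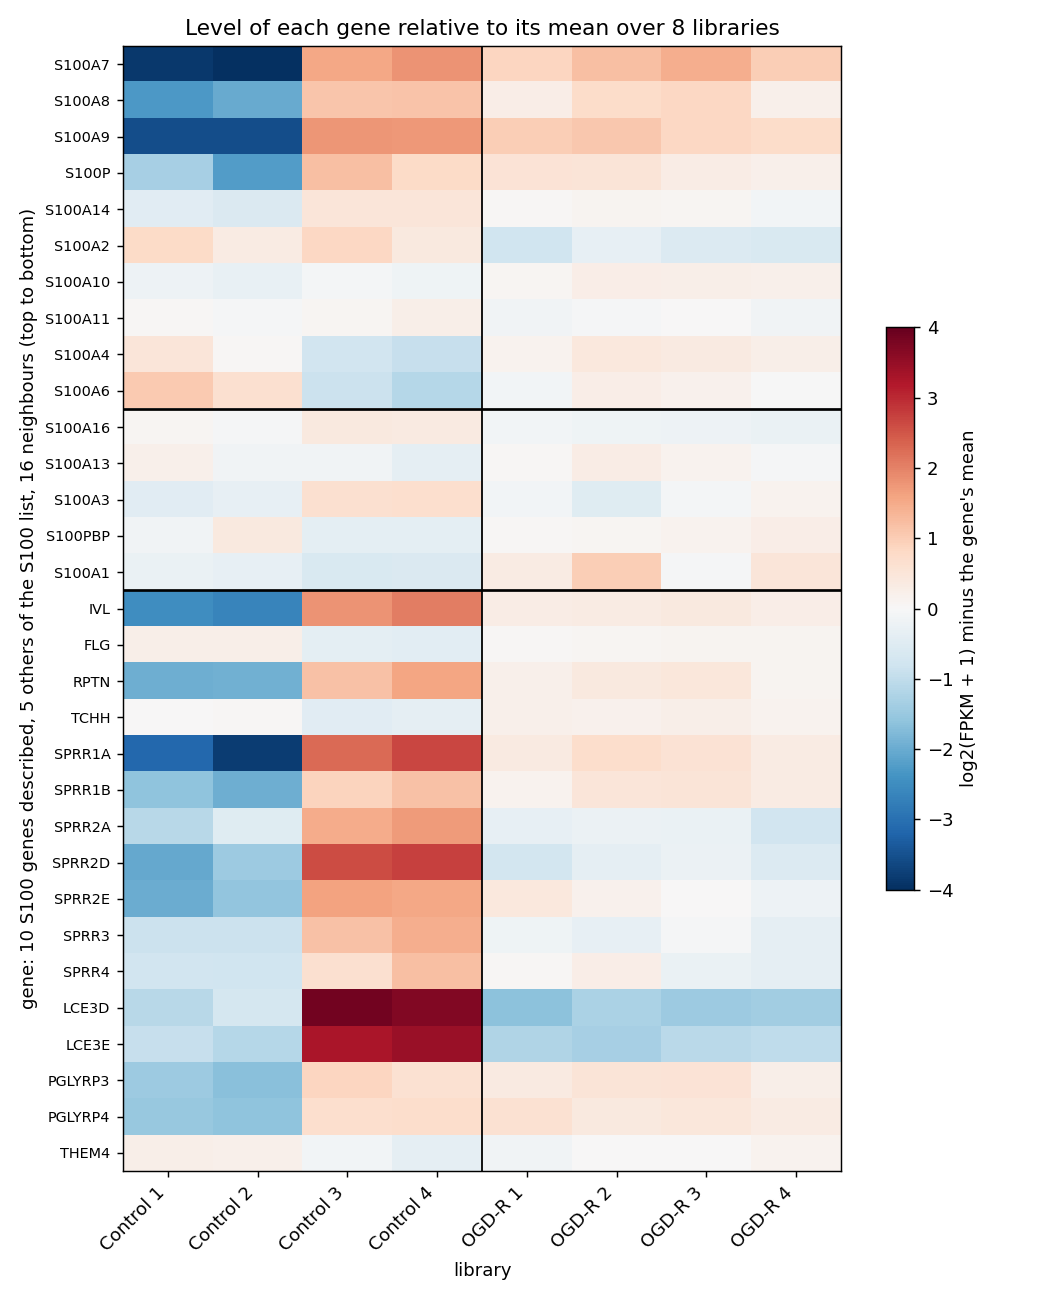
Log2(FPKM + 1) of each gene minus its mean over the 8 libraries (colour), for the 10 S100 genes, 5 others of the S100 list and 16 tested neighbours of the epidermal differentiation complex (rows) in each library (columns). The rows of S100A7, S100A8, S100A9 and S100P are low in Controls 1 and 2 and high in Controls 3 and 4, as are IVL, RPTN and the SPRR genes, while S100A2 is low in all 4 OGD-R libraries.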

How the data were processed

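RNA sequencing covered 8 HaCaT libraries, grouped as Control or OGD-R by their titles, 4 each. A NEBNext kit and a SMARTer kit both appear in the labels' protocols. Aligner, counter, build and annotation: not given in the sources used here. Each library has 1 table by the authors, with IDs, symbols and values but no unit. These deposited values were treated as FPKM. In each library, low values of 940 single-exon genes, multiplied by gene length, were searched for the 1 value they shared most often. It was taken as 1 fragment, and its multiples were not examined. Only 11 to 19 of 132 to 169 low values per library matched it to 0.5%, so the unit and the depth they imply rest on few values. By this reading 1 fragment on the longest S100A7 transcript is worth 0.0837 FPKM in Control 1, the deepest library, and 0.124 FPKM in Control 4, the shallowest. FPKM divides by the library total, so abundant genes can lower others.

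limma 3.58.1 in R 4.3.3, with a trend on mean level, tested log2(FPKM + 1) of 11740 genes averaging at least 1 FPKM, two-sided, with Benjamini-Hochberg adjustment. All 10 S100 genes passed this filter. The fit was first tried on simulated data. No result of that trial is given, so it does not show how the test behaves with Controls that differ by pair. On this scale changes of low genes are understated. Count tests were foreseen, but values that are not counts do not allow them. The genes, lists, markers and pairs of Controls left out were chosen with earlier results of these data known. From each list, genes were named if called with no overlap between groups (up to 6, by smallest p), besides detected S100 genes and ANXA1, ANXA2, CACYBP, AGER and TLR4. Alternatives covered filters, pseudocounts, libraries left out, a replicate block, scalings and the trend. IDs were matched to GENCODE 29 (GRCh38). Promoter windows of all 10 genes were found in RefSeq by symbol.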

Additional observations from a re-analysis of the deposited data

How the results depend on the processing

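Over 18 alternatives S100A2 kept its direction and its call in all 18, and S100A10 kept its direction in all and its call in 14. For both genes the groups did not overlap, so leaving out libraries could not turn either direction. Without Controls 3 and 4 and without Controls 1 and 2, the S100 genes called higher numbered 6 and 3 (1 with all libraries), those called lower 2 and 7 (1 with all libraries), and all genes called 6480 and 7940, against 2340. With a single library left out these counts ranged from 0 to 2 higher, from 1 to 1 lower and from 1276 to 2608 in all. Without Controls 1 and 2 the log2 fold change turned to -0.54 for S100A7, -0.63 for S100A8, -0.85 for S100A9, -0.60 for S100P and -0.44 for S100A14, and without Controls 3 and 4 to -0.77 for S100A6. For these genes OGD-R lay between the pairs, which fixed those signs in advance. With single libraries left out, S100A14 ranged from -0.13 to 0.22 and S100A6 from -0.20 to 0.53, all uncalled. Likewise uncalled, S100A7 ranged from 1.30 to 3.22, S100A8 from 0.42 to 1.56, S100A9 from 0.92 to 2.69 and S100P from 0.17 to 1.32, in each case lowest without Control 1 or 2 and highest without Control 3 or 4. Pseudocounts of 0.1 and 0.01 moved S100A8 from 1.01 to 1.55 and 1.65, S100A9 from 1.80 to 2.37 and 2.46, and S100P from 0.79 to 1.13 and 1.19. The cause was not tested. With the replicate block 0 S100 genes were called higher and 1132 genes were called in all, and the calls of S100A10 (limma adjusted p = 0.0776), MYH9 (0.0949), FOSL2 (0.0666), IL17RC (0.0900), IL22RA1 (0.0564) and ALCAM (0.149) were lost. Same-numbered libraries deviated together with correlations of only 0.0450 to 0.0646, and 1 of 4 Controls correlated best with its own number. The Controls differ mainly by pair, a split that OGD-R lacks, so these values cannot show whether same-numbered libraries belong together. The filters, pseudocounts, scalings and the missing trend changed no call of the 10 S100 genes. On a transcript as short as that of S100A7, levels below 0.0837 FPKM (Control 1) to 0.124 FPKM (Control 4) are less than 1 fragment.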
